A study of Schizosaccharomyces pombe with 78 samples.

Results

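Fission yeast *cdc18* (SPBC14C8.07c) and *cdt1* (SPBC428.18) encode the pair of licensing factors that load the MCM helicase onto replication origins, and both genes were followed by RNA sequencing through synchronous cell cycles in strains that differ in the phosphorylation sites of the repressor Nrm1. They are 2 of 12683 features in the table of normalized counts and were taken by systematic name. That rule reads no measured value, but the pair was picked with earlier results of these data known. All strains carry the temperature-sensitive *cdc25-22* allele, which arrests cells in G2 at the restrictive temperature and lets them enter mitosis together once cooled. The strain called Nrm1 has genotype *cdc25-22 nrm1-HA*. Nrm1-SA expresses an HA-tagged Nrm1 that cannot be phosphorylated at the mutated residues, and Nrm1-SD an HA-tagged form that mimics phosphorylation there, so even the control is a tagged, temperature-sensitive strain. Each strain was sampled as an untreated asynchronous culture and at 12 times after release, spaced by 20 min and ending at 220 min, in 2 biological replicates, giving 39 conditions and 78 libraries of polyA RNA. Libraries of a strain with the same replicate number are treated here as the same culture followed over time. The labels do not state this.

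In G1, Cdc18 (the counterpart of Cdc6 in other eukaryotes) and Cdt1 act with the origin recognition complex to place MCM on chromatin, and both proteins are then removed so that origins fire only once per cycle. Cdc18 is an ATPase that is marked for destruction by CDK phosphorylation and the F-box proteins Pop1 and Pop2, whereas Cdt1 is destroyed through the ubiquitin ligase adaptor Cdt2. Transcription of both genes is driven by MBF, a complex built on Cdc10, Res1 and Res2 that binds MCB elements. Nrm1 and Yox1 are its co-repressors and Rep2 its co-activator. An excess of Cdc18 is known to drive re-replication in fission yeast. The sequencing reports mRNA and not these proteins.

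Both genes lie on chromosome II. In the RefSeq annotation of ASM294v3, *cdc18* is a single-exon gene on the minus strand at chrII:2215955-2217984 and *cdt1* lies on the plus strand at chrII:477392-478738. The labels name ASM294v2 as the build of the alignment, so coordinates here describe the annotation and not the aligned reads. The 150 bases before each annotated transcript start are shown because they hold every copy of the MCB core found in the 250 bases searched. They cover chrII:2217985-2218134 for *cdc18* and chrII:477242-477391 for *cdt1*, each read on the strand of its gene, with the core ACGCG and its reverse complement CGCGT in capitals.
cdc18: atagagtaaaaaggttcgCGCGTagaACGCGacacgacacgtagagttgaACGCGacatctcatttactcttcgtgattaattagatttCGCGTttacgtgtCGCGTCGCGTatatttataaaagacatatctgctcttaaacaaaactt
cdt1: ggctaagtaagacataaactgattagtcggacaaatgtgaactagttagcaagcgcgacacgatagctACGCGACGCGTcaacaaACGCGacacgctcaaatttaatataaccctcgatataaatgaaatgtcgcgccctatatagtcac
Upstream of *cdc18* there were 6 core matches on either strand, from 132 to 43 bases before the transcript start, and no copy of the 6-base element ACGCGT. Upstream of *cdt1* there were 4 core matches between 82 and 65 bases before the start, 2 of which are the overlapping strands of 1 ACGCGT. Of 5112 protein-coding promoters of the same length, 9.47% held the core, 0.998% held it at least 3 times, 0.411% at least 4 times and 0.0782% at least 6 times, while 2.64% held ACGCGT. The *cdc18* promoter amplicon that the study used for chromatin immunoprecipitation maps to chrII:2217963-2218057 and spans 3 of the 6 cores, the cluster nearest the gene. These matches describe letters in the sequence and not bound sites.

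Depth ranged between 2685381 and 10469416 counted reads per library. *cdc18* received 339 to 3560 reads per library and *cdt1* 54 to 2728, so *cdt1* at its lowest points is the less precisely measured of the pair. The annotation places 2 non-coding RNAs antisense to *cdc18*, SPNCRNA.1495 and SPNCRNA.5544, which reached at most 15.4 and 13.5 normalized counts, against a lowest value of 508 for *cdc18*. The library kit marks strand, but whether the counting used it is not given in the sources used here. No feature overlaps *cdt1*. For Nrm1-SA at 140 min, both replicates differed by less than the sampling noise (chi-square per degree of freedom 0.392, against 1.88 to 18.2 in the other 38 pairs) and were counted as 1 sample. The highest value, 18.2, belongs to Nrm1-SD at 220 min, followed by 7.64 for Nrm1 at 40 min. RNA counts carry no information on the *nrm1* alleles, so the strain labels were not checked by the mutated residues. In bulk RNA, fewer cells in a given phase and less mRNA per cell cannot be told apart.

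With wild-type Nrm1, both mRNAs peaked in each cycle at the same time points, and *cdt1* swung far more than *cdc18*. The *cdc18* level was 649 and 655 normalized counts (replicates 1 and 2) in the block, 2149 and 2157 at 40 min, 2666 and 2734 at 60 min, and 587 and 646 at 120 min. It returned to 2473 and 2499 at 180 min and fell back to 996 and 921 at 220 min. The peak at 60 min was 4.14 times the block level, and no replicate at 40, 60, 180 or 200 min overlapped any replicate at 0, 100, 120 or 140 min. For *cdt1* the block level was 92.3 and 94.5, and counts were 1086 and 1171 at 40 min, 2043 and 2302 at 60 min, and 102 and 103 at 120 min. The second peak reached 1559 and 1510.3 at 180 min. This is a 23.3-fold range between block and first peak. The first decline was abrupt for both genes: between 60 and 80 min *cdc18* dropped 2.37-fold and *cdt1* 4.3-fold. The second was slower, and at 200 min *cdc18* was still at 1757 and 1810.5 and *cdt1* at 1150.0 and 1219.

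**Figure D1:**
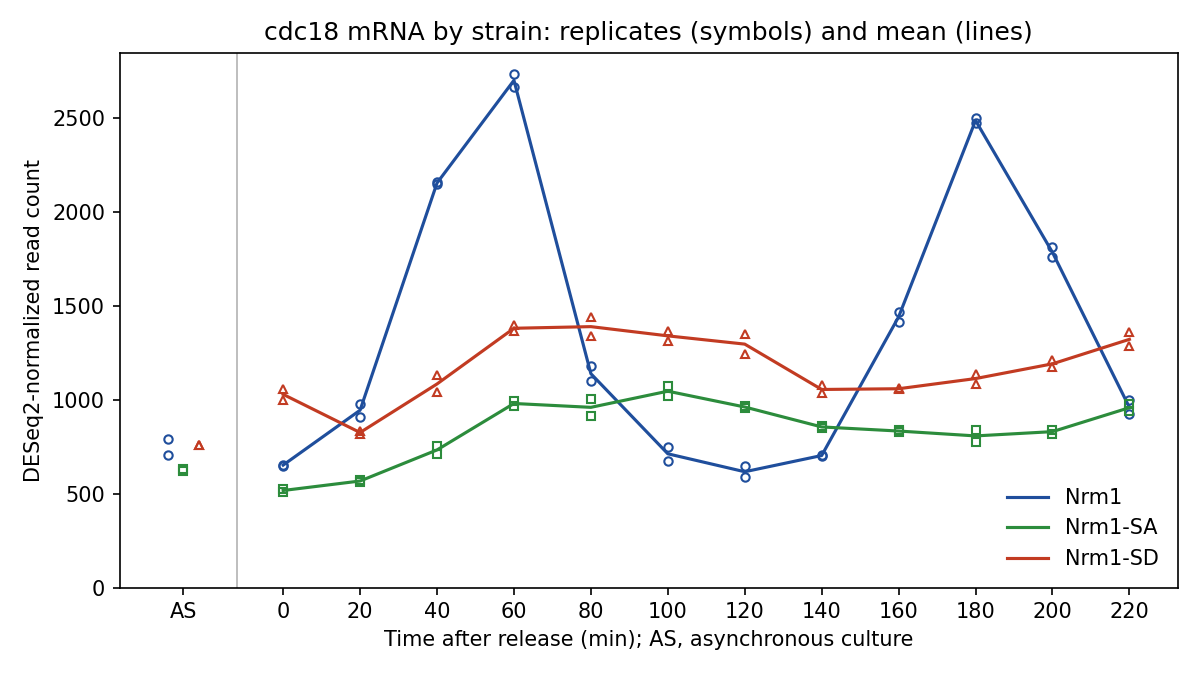
DESeq2-normalized *cdc18* read counts (y axis) in asynchronous cultures (AS) and by time after release in minutes (x axis); symbols are the replicates (circles Nrm1, squares Nrm1-SA, triangles Nrm1-SD) and lines their means. Nrm1 peaks at 60 and 180 min with means of 2699.6 and 2486. Both mutants rise and fall less and keep every time point between 508 and 1439.5.

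In both mutants *cdc18* lost the sharp peaks of Nrm1 and kept a shallower rise and fall, at a higher level in Nrm1-SD than in Nrm1-SA. In Nrm1-SA the level was 526 and 508 in the block, 709.7 and 755 at 40 min, 965 and 995 at 60 min, 1019 and 1071 at 100 min, and 966 and 956 at 120 min. It was 839 and 775 at 180 min, when the Nrm1 strain was at its second peak. In these cultures the highest value fell at 100 min in both replicates, and it was 1.94 and 2.11 times the lowest. With wild-type Nrm1 the highest value fell at 60 min. Replicate 1 of Nrm1-SA was at 1003 at 80 min, close to its 1019 at 100 min, so the length of the delay was not resolved. In Nrm1-SD the level started at 1057 and 999 in the block, dipped to 816 and 834 at 20 min, and reached 1397 and 1363 at 60 min. At 120 min it was still 1347 and 1244, at 140 min it was 1076 and 1033, and at 180 min it was 1139 and 1086. The highest value in Nrm1-SD was 1.76 and 1.63 times the lowest, against 4.54 and 4.23 times in Nrm1. The second-cycle maximum came at 220 min, the last sample, in all 4 mutant cultures, so a later maximum was not covered. In Nrm1-SD it rests on the replicate pair that differed most over all features, with *cdc18* at 1358 and 1285. Without that pair the highest second-cycle values are those at 200 min, 1172 and 1210.

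A reduced *cdt1* peak was kept by both mutants. In Nrm1-SA *cdt1* was at 57.1 and 73.6 in the block, 113 and 129 at 40 min, 299 and 341 at 60 min, 179 and 154 at 80 min, and 143 and 143 at 120 min. In Nrm1-SD the same times gave 198 and 197 in the block, 209 and 252 at 40 min, 665 and 657 at 60 min, 433 and 381 at 80 min, and 188 and 192 at 120 min. It was 471 and 515 at 200 min. The first maximum therefore stayed at 60 min in all 6 cultures, while the second came at 180 min in Nrm1 and at 200 min in Nrm1-SD. In Nrm1-SA the values at 180 min (239.997 and 249), 200 min (240.2 and 265) and 220 min (229 and 257) overlapped, and the time of the second maximum was not resolved. The gap was widest on the way up: at 40 min the Nrm1 mean was 9.33 times that of Nrm1-SA and 4.9 times that of Nrm1-SD, and at 60 min it was 3.29 times that of Nrm1-SD.

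**Figure D2:**
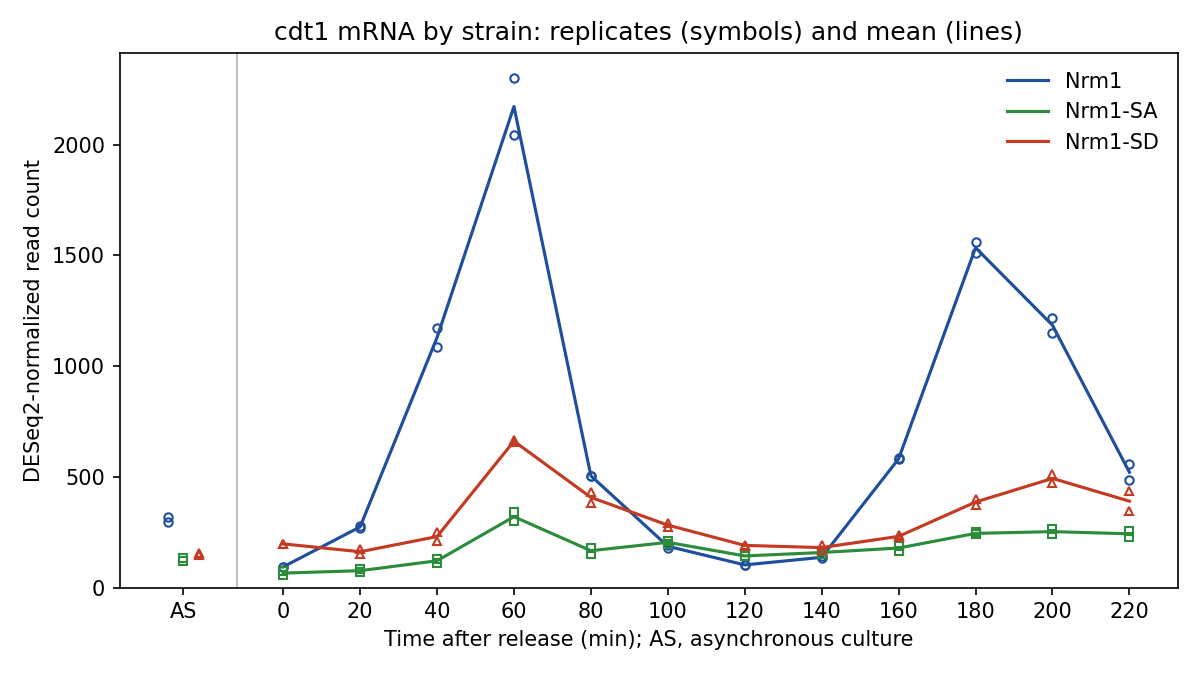
DESeq2-normalized *cdt1* read counts (y axis) in asynchronous cultures (AS) and by time after release in minutes (x axis); symbols are replicates and lines means, as for *cdc18*. At 60 min the means are 2172 in Nrm1, 661 in Nrm1-SD and 320.0 in Nrm1-SA, and the lowest means of Nrm1 and Nrm1-SA are in the block.

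The order of the 39 condition means summarizes this. For *cdc18* the top 5 places belonged to Nrm1 at 60, 180, 40, 200 and 160 min. The replicates of the first 4 did not overlap those of the next. Nrm1-SD at 80, 60, 100, 220 and 120 min followed. Neighbours among these overlapped, and the last stood apart from the next place, Nrm1-SD at 200 min. The bottom place was Nrm1-SA in the block (mean 517). For *cdt1* the top 4 places were again those of Nrm1, and the fifth, Nrm1-SD at 60 min, stood apart from both neighbours. The lowest were Nrm1-SA in the block and at 20 min, whose replicates overlapped. Per kilobase of annotated transcript (2030 bp for *cdc18*, 1347 bp for *cdt1*), *cdt1* in Nrm1 exceeded *cdc18* at 60 min, with 1613 against 1329.9 normalized counts per kb, but was far below it in the block, with 69.3 against 321. In both mutants *cdc18* was the higher per kilobase at 60 min, with 483 against 238 in Nrm1-SA and 679.8 against 491 in Nrm1-SD.

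The differences were tested with limma across 7431 features, on log2(normalized count + 1) with Benjamini-Hochberg adjusted p-values and a threshold of 0.1. All differences below are on that log2 scale, with their standard errors, and each is read beside the share of features called in the same comparison. Both mutants are compared with the same Nrm1 libraries. Time points of a culture entered the tests as independent, although they share that culture. Between time points of the same strain, replicate deviations correlated between -0.0786 and 0.259 (median 0.0496). The adjusted p-values may therefore be too small, and they do not stand for replication over many cultures. Over the 12 time points both genes changed in every strain. The adjusted p for *cdc18* was 7.13e-39 for Nrm1, 8.99e-22 for Nrm1-SA and 5.37e-16 for Nrm1-SD, and that for *cdt1* was 3.59e-41, 1.01e-25 and 8.49e-25. Change over time is the rule in these cultures: the test called 88.1% of features for Nrm1, 83.9% for Nrm1-SA and 91.9% for Nrm1-SD.

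Amplitude is the mean of the peak times (60, 80, 180 and 200 min) minus that of the trough times (120 and 140 min). This measure separates the pair. Its windows match the peaks and trough of Nrm1. In both Nrm1-SA cultures the highest *cdc18* value fell at 100 min, outside them. An amplitude near 0 therefore cannot tell a shifted wave from an absent one. For *cdc18* it was 1.58 and 1.51 in the replicates of Nrm1, -0.0042 and -0.048 in those of Nrm1-SA, and 0.088 and 0.13 in those of Nrm1-SD. For *cdt1* it was 3.27 and 3.36 in Nrm1, 0.61 and 0.72 in Nrm1-SA, and 1.42 and 1.29 in Nrm1-SD. The cultures of the control stood apart from all mutant cultures for both genes, and the cultures of both mutants did not overlap each other for either gene. The Nrm1-SA cultures are not fully separate here, nor in the ratio below, since each includes its own library of the 140 min pair that the tests count as 1 sample. Within strains, the fitted *cdt1* amplitude passed the test in Nrm1 (3.32 ± 0.07, adjusted p = 1.84e-40), Nrm1-SA (0.67 ± 0.08, adjusted p = 1.04e-09) and Nrm1-SD (1.35 ± 0.07, adjusted p = 1.58e-23). That of *cdc18* did not pass in Nrm1-SA (-0.026 ± 0.044, adjusted p = 0.733), and in Nrm1-SD it passed (adjusted p = 0.0158) but became -0.064 with 60, 180 and 120 min alone as peaks and trough, and no longer passed without replicate 2 (0.088, adjusted p = 0.233). Such amplitudes, of either sign, were called for 48.1% (Nrm1), 30.3% (Nrm1-SA) and 46.3% (Nrm1-SD) of features.

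Against Nrm1, the *cdt1* amplitude fell by 2.65 ± 0.10 in Nrm1-SA (adjusted p = 3.24e-27) and by 1.96 ± 0.09 in Nrm1-SD (adjusted p = 4.60e-23), and that of *cdc18* fell in both with adjusted p of 7.16e-28 and 2.78e-27. The amplitude differed from Nrm1 in 6.04% of features in Nrm1-SA (3.47% lower, 2.57% higher) and in 1.48% in Nrm1-SD (1.04% lower, 0.444% higher). Between the mutants, *cdt1* kept 0.69 ± 0.10 more amplitude in Nrm1-SD than in Nrm1-SA (adjusted p = 6.28e-06, with 2.23% of features called), a call lost with single time points (0.44, adjusted p = 0.155). For *cdc18* the difference between mutants was 0.14 ± 0.06 and was not called (adjusted p = 0.31).

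In the block, before release, the mutants moved in opposite directions for both genes. In Nrm1-SD, *cdc18* was higher than in Nrm1 by 0.66 ± 0.06 (adjusted p = 2.13e-11) and *cdt1* by 1.07 ± 0.11 (adjusted p = 2.44e-10), a comparison in which 2.03% of features were called. In Nrm1-SA both were lower, with differences of -0.33 ± 0.06 for *cdc18* (adjusted p = 2.27e-04) and -0.52 ± 0.11 for *cdt1* (adjusted p = 0.00142), and 4.54% of features were called. The *cdt1* call in Nrm1-SA was lost without replicate 2 of Nrm1 (-0.50, adjusted p = 0.109), without replicate 1 of Nrm1-SA (-0.34, adjusted p = 0.226) and with DESeq2 (-0.49, adjusted p = 0.113). Between the mutants the gap was 0.99 ± 0.06 for *cdc18* and 1.59 ± 0.11 for *cdt1* (adjusted p = 3.09e-18 and 8.60e-17, with 7.51% of features called).

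**Figure D3:**
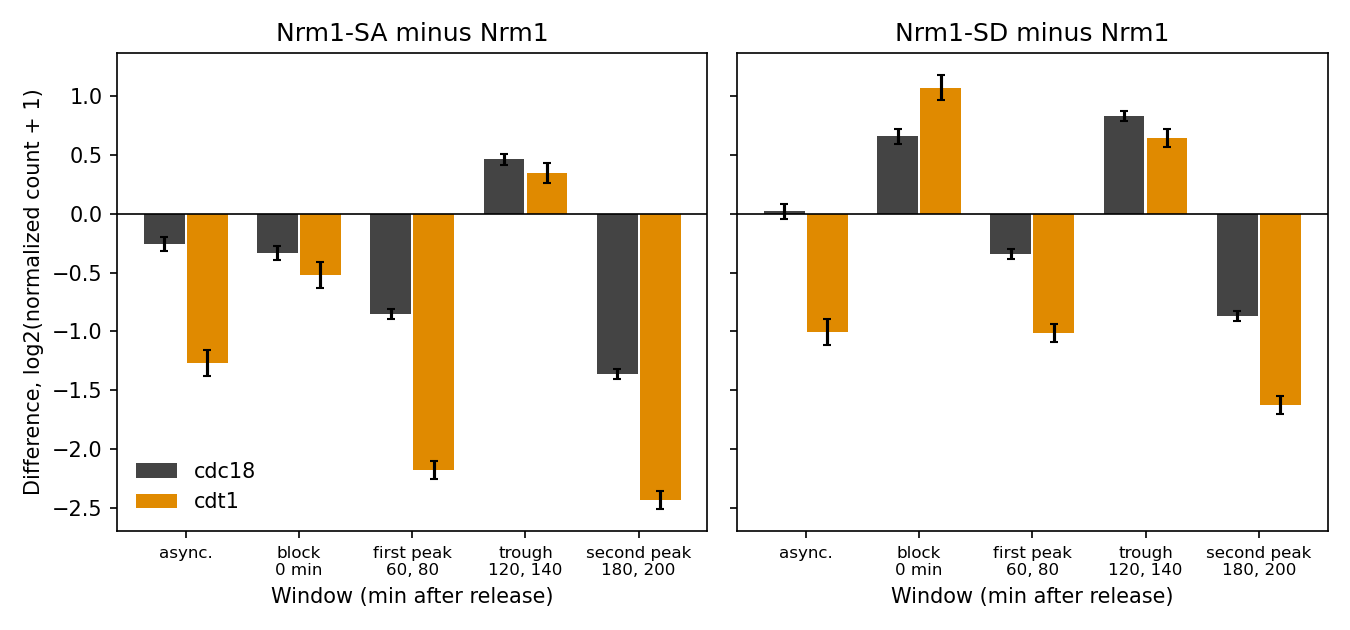
Fitted difference of each mutant from Nrm1 (y axis, log2(normalized count + 1)) for *cdc18* (grey) and *cdt1* (orange) in each window of time (x axis); bars are estimates and error bars their standard errors from limma. In the peak windows and in asynchronous cultures the *cdt1* bars extend further down than those of *cdc18*, and at the trough all 4 bars are above 0.

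At the first peak (60 and 80 min), *cdt1* was lower in both mutants, with differences of -2.18 ± 0.08 in Nrm1-SA (adjusted p = 9.86e-29) and -1.01 ± 0.08 in Nrm1-SD (adjusted p = 6.23e-15). *cdc18* differed by -0.85 ± 0.04 (adjusted p = 6.26e-22) and -0.34 ± 0.04 (adjusted p = 9.22e-08). Calls were made for 24.2% of features for Nrm1-SA and 2.23% for Nrm1-SD. This window averages a time at which Nrm1 was far above the mutants with one at which *cdc18* was not, since at 80 min Nrm1 had 1179.5 and 1097, Nrm1-SA 1003 and 915, and Nrm1-SD 1439.5 and 1338. With 60 min alone, the *cdc18* differences were -1.46 and -0.97 and those of *cdt1* -2.76 and -1.71. At the second peak (180 and 200 min) the differences were -1.36 ± 0.04 and -0.87 ± 0.04 for *cdc18* (adjusted p = 5.52e-31 and 4.66e-22) and -2.43 ± 0.08 and -1.63 ± 0.08 for *cdt1* (adjusted p = 3.57e-31 and 4.49e-23), in Nrm1-SA and Nrm1-SD in that order. Of all features, 37.6% were called in the second-peak window in Nrm1-SA and 4.37% in Nrm1-SD.

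Nrm1-SD stayed above Nrm1-SA in both windows. The differences were 0.51 ± 0.04 and 0.49 ± 0.04 for *cdc18* (adjusted p = 2.21e-13 and 6.70e-13) and 1.17 ± 0.08 and 0.81 ± 0.08 for *cdt1* (adjusted p = 2.34e-17 and 4.63e-12), at the first and second peak in that order. These comparisons called 25.9% and 36.4% of features.

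At the trough (120 and 140 min) the direction turned, and both genes were higher in both mutants. The rise over Nrm1 was 0.46 ± 0.05 in Nrm1-SA and 0.83 ± 0.04 in Nrm1-SD for *cdc18* (adjusted p = 2.80e-10 and 5.94e-21), and 0.34 ± 0.09 and 0.64 ± 0.08 for *cdt1* (adjusted p = 0.00255 and 1.32e-08). Of all features, 23.2% were called for Nrm1-SA and 2.42% for Nrm1-SD. Nrm1-SD exceeded Nrm1-SA by 0.37 ± 0.05 for *cdc18* and 0.30 ± 0.09 for *cdt1* (adjusted p = 1.02e-07 and 0.010, with 21.3% of features called).

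Asynchronous cultures gave a different result for each gene. *cdt1* was at 294 and 318 for Nrm1, 121 and 133 for Nrm1-SA and 158 and 146 for Nrm1-SD. Both mutants lay below the control without overlap, with differences of -1.27 ± 0.11 (adjusted p = 5.25e-13) and -1.005 ± 0.109 (adjusted p = 1.33e-09). *cdc18* was at 708 and 793 for Nrm1, 621 and 633 for Nrm1-SA and 761 and 757 for Nrm1-SD. It was lower in Nrm1-SA (-0.26 ± 0.06, adjusted p = 0.00411), a call lost without replicate 2 of Nrm1 (-0.17, adjusted p = 0.307), and it was not called in Nrm1-SD (0.019 ± 0.062, adjusted p = 0.959). The share of features called was 13.8% for Nrm1-SA and 2.4% for Nrm1-SD. Between the mutants *cdc18* was higher in Nrm1-SD (0.27 ± 0.06, adjusted p = 0.00237), whereas for *cdt1* the difference was 0.26 ± 0.11 and did not pass (adjusted p = 0.163, with 8.6% of features called).

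Moving from asynchronous growth into the block changed the pair differently by strain. In Nrm1 the block lowered *cdt1* (-1.70 ± 0.11, adjusted p = 7.76e-19) and, less, *cdc18* (-0.20 ± 0.06, adjusted p = 0.00529), the latter lost without replicate 2 of Nrm1 (-0.13, adjusted p = 0.274). In Nrm1-SA it lowered both, with differences of -0.95 ± 0.11 for *cdt1* and -0.28 ± 0.06 for *cdc18* (adjusted p = 2.37e-10 and 1.80e-04). In Nrm1-SD it raised both, *cdc18* by 0.44 ± 0.06 and *cdt1* by 0.37 ± 0.11 (adjusted p = 4.64e-08 and 0.00326). Much of the transcriptome differed between block and asynchronous growth, and calls covered 59.6% (Nrm1), 55.5% (Nrm1-SA) and 59.7% (Nrm1-SD) of features. Cells reach the block by a shift to the restrictive temperature. Effects of the arrest and of the temperature therefore cannot be told apart here. The test of the difference in this response between Nrm1-SD and Nrm1 gave 0.64 ± 0.09 for *cdc18* and 2.08 ± 0.15 for *cdt1* (adjusted p = 2.02e-06 and 2.34e-14, with 0.955% of features called). Between Nrm1-SD and Nrm1-SA it gave 0.72 ± 0.09 and 1.33 ± 0.15 (adjusted p = 1.30e-07 and 3.41e-08, with 3.89% called). Between Nrm1-SA and Nrm1 it passed for *cdt1* (0.75 ± 0.15, adjusted p = 0.00212) and not for *cdc18* (-0.079 ± 0.087, adjusted p = 0.82), with 3.24% called. The *cdt1* call was lost without replicate 2 of Nrm1 (0.71, adjusted p = 0.188).

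The comparison of the second with the first cycle depended on the window. With 2 time points per peak, the second peak of *cdc18* was above the first in Nrm1 (0.26 ± 0.04) and below it in Nrm1-SA (-0.24 ± 0.04) and Nrm1-SD (-0.27 ± 0.04), with adjusted p of 1.65e-06, 8.01e-06 and 1.54e-06. For *cdt1* the values were 0.36 ± 0.08, 0.11 ± 0.08 and -0.25 ± 0.08 (adjusted p = 9.51e-05, 0.244 and 0.0062). Of all features, 56.3%, 54.7% and 55.6% were called in the 3 strains in that order. With 60 and 180 min alone, the Nrm1 values turned to -0.12 for *cdc18* and -0.50 for *cdt1*, and those of *cdt1* in Nrm1-SA and Nrm1-SD became -0.38 and -0.77. The *cdt1* call in Nrm1-SD was lost without its replicate 1 (-0.19, adjusted p = 0.156). At 80 min the Nrm1 levels were already past the first peak. Strain differences in this contrast were called in 8.26% of features between Nrm1-SA and Nrm1, 0.431% between Nrm1-SD and Nrm1, and 5.76% between the mutants, and every one called for the pair lost its call with single time points.

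The ratio of *cdc18* to *cdt1* within a library does not depend on how libraries were scaled, apart from the 1 added to each count before the log. As log2(*cdc18* + 1) minus log2(*cdt1* + 1), it moved in Nrm1 from 2.80 and 2.78 in the block to 0.38 and 0.25 at 60 min and back to 2.51 and 2.64 at 120 min. At 60 min it was 1.69 and 1.54 for Nrm1-SA, against 1.07 and 1.05 for Nrm1-SD. The mutants thus kept a dip of the ratio at 60 min without coming near the level of Nrm1. Averaged over the 12 time points, the ratio was 1.44 and 1.45 in the cultures of Nrm1, 2.36 and 2.27 in those of Nrm1-SA, and 2.05 and 1.97 in those of Nrm1-SD. The strains did not overlap, and differed from Nrm1 by 0.87 and 0.56, but an exact two-sided permutation test of 2 cultures against 2 cannot go below p = 0.333, which is what all 3 pairs of strains gave. In asynchronous cultures the ratio was 1.26 and 1.31 for Nrm1, 2.35 and 2.25 for Nrm1-SA, and 2.26 and 2.37 for Nrm1-SD (exact permutation p = 0.333 for either mutant against Nrm1 and 0.667 between the mutants), so the mutants overlapped each other there.

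**Figure D4:**
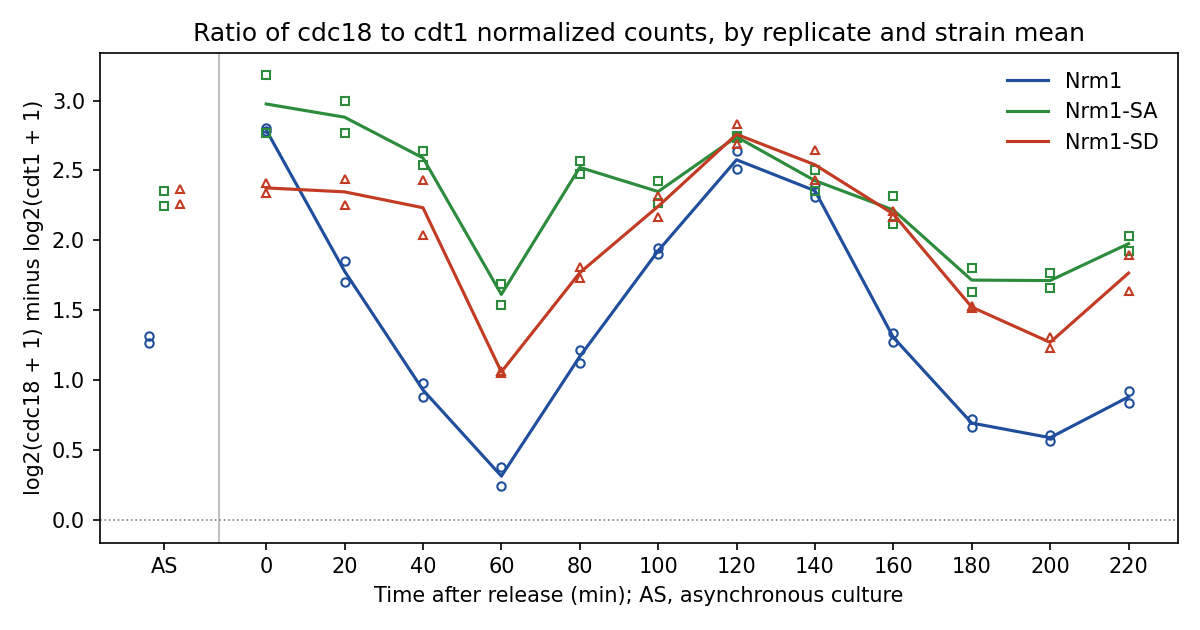
Difference of log2(normalized count + 1) between *cdc18* and *cdt1* (y axis) in asynchronous cultures (AS) and by time after release in minutes (x axis); symbols are replicates, lines means, and the dotted line marks equal counts. The Nrm1 strain dips to 0.38 and 0.25 at 60 min, while in Nrm1-SA no library is below 1.54 and in Nrm1-SD none is below 1.05.

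Across the 39 condition means, the protein-coding genes most like *cdc18* by Pearson correlation were *ams2* (r = 0.97), a GATA-type factor of histone gene transcription, *cdt2* (r = 0.92), *cdt1* itself (r = 0.909), *tos4* (r = 0.897), which encodes an FHA-domain protein, and *cdc22* (r = 0.882), the large subunit of ribonucleotide reductase. For *cdt1* they were *mik1* (r = 0.927), a kinase that inhibits CDK, *cdc18* (r = 0.909), *cdc22* (r = 0.908), *ams2* (r = 0.899) and *mrc1* (r = 0.899), a mediator of the replication checkpoint. These conditions share cultures and strains, and the correlations are descriptions. Over the 12 time points of a strain the pair itself correlated at 0.971 for Nrm1, 0.822 for Nrm1-SA and 0.674 for Nrm1-SD. The Nrm1 profile of *cdc18* correlated with that of the mutants at 0.112 (Nrm1-SA) and 0.0896 (Nrm1-SD), and that of *cdt1* at 0.633 and 0.756.

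The like genes differed among themselves at the level of means. In Nrm1-SA, *ams2* was at 855 normalized counts at 60 min and 812 at 120 min, close to each other as for *cdc18* (979.7 and 961), to which it was matched over these same conditions, and *cdt2* was higher at 120 min (432) than at 60 min (282). *mik1*, by contrast, kept a peak in Nrm1-SA of 468 at 60 min against 84.8 at 120 min, as *cdt1* did (320.0 against 143). So did *tos4* (6103 against 3314), among the genes most like *cdc18*, and *mrc1* (1228 against 674), among those most like *cdt1*. *cdc22* did too (11651 against 6610), and like *ams2* it is among the genes most like either member. In Nrm1 the corresponding means were 2072 and 597 for *ams2*, 1743 and 181 for *cdt2*, and 1355 and 64.3 for *mik1*.

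Of 12 genes for the origin recognition complex and MCM, the partners of Cdc18 and Cdt1 in licensing, 1 had a higher amplitude in Nrm1-SA than in Nrm1 and none a lower one, and none was called in Nrm1-SD. With 6.04% and 1.48% of all features called in these comparisons, such counts are near the background. The list's median difference was 0.049 for Nrm1-SA and 0.031 for Nrm1-SD, beside -0.0022 and 0.0021 over all features. The exception was *orc4*, whose dip at the peak times was shallower in Nrm1-SA (0.24 ± 0.08, adjusted p = 0.0634). *mcm5*, next by size, was not called (0.17 ± 0.10, adjusted p = 0.413).

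Among 11 genes that act on licensed origins when they fire, 1 lost amplitude in Nrm1-SA and none was called in Nrm1-SD, with medians of 0.057 and 0.0046. This too is near the background (3.47% of all features called lower in Nrm1-SA and 1.04% in Nrm1-SD). It was *dfp1*, the regulatory subunit of the Hsk1 kinase. Its level at 60 min was 1869.7 and 1771 for Nrm1, 1639 and 1621 for Nrm1-SA and 1544 and 1582 for Nrm1-SD, against 811 and 792, 899 and 800.1, and 789 and 788 at 120 min. Its amplitude differed by -0.36 ± 0.08 (adjusted p = 0.00211) and -0.17 ± 0.07 (adjusted p = 0.478), and in every strain it was higher at 60 min than at 120 min. *psf1*, a GINS subunit, was not called (0.38 ± 0.16, adjusted p = 0.195).

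Of 11 genes for turnover of the pair and control of CDK, 2 lost amplitude in both mutants, *cdt2* and *cig2*, and 1 gained in Nrm1-SA, *cul1* (named after its value was seen). Over all features, 3.47% were called lower and 2.57% higher in Nrm1-SA, and 1.04% lower in Nrm1-SD. The list medians were -0.016 for Nrm1-SA and -2.01e-05 for Nrm1-SD. *cdt2*, the adaptor for Cdt1 destruction, went from 170.4 and 173 in the block to 1733 and 1753 at 60 min in Nrm1. At 60 min it was at 243 and 320.2 for Nrm1-SA, against 539.7 and 594 for Nrm1-SD, and at 120 min at 415 and 449 for Nrm1-SA, against 490.4 and 460.4 for Nrm1-SD. Its amplitude differed by -2.89 ± 0.10 (adjusted p = 2.00e-29) in Nrm1-SA and -2.31 ± 0.09 (adjusted p = 9.40e-27) in Nrm1-SD. In asynchronous cultures, where *cdt1* was lower in both mutants, *cdt2* was not called in either (adjusted p = 0.376 and 0.612). *cig2*, an S-phase cyclin gene, differed by -0.38 ± 0.09 and -0.64 ± 0.08 in amplitude (adjusted p = 0.00309 and 2.94e-08).

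Of 6 genes for MBF and its regulators, 4 lost amplitude in Nrm1-SA, and 3 did so in Nrm1-SD, with medians of -0.34 and -0.30, beside 3.47% and 1.04% of all features called lower. The largest differences were those of the co-repressor genes *yox1* (-1.49 ± 0.10 and -1.83 ± 0.09, adjusted p = 8.79e-18 and 4.60e-23) and *nrm1* (-0.88 ± 0.12 and -1.01 ± 0.11, adjusted p = 3.81e-07 and 1.93e-09). The others, named after their values were seen, were *cdc10* in both mutants and *res2* in Nrm1-SA. In the block, where *cdc18* and *cdt1* were raised in Nrm1-SD, *nrm1* was too, at 2382 and 1871 against 794 and 1133 in Nrm1 (1.15 ± 0.13, adjusted p = 3.84e-09). The *nrm1* gene itself carries a different allele in each strain. Whether that affects its counts, in the block or in the amplitude, was not tested. *wpl1*, the gene upstream of *cdt1* on the opposite strand, was not called, with an amplitude difference in Nrm1-SA of 0.058 ± 0.085 (adjusted p = 0.809).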

How the data were processed

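The authors trimmed paired-end reads, aligned them with STAR, counted them per feature with HTSeq and divided the counts by DESeq2 size factors; the deposited values are this signal, 1 column for each of the 78 libraries. Whole reads were recovered by dividing each column by its smallest value above 0 (100.0% of values whole, tolerance 0.01), and recomputed size factors deviated by at most 7.4e-08%. Conditions came from the labels. Tests used limma 3.58.1 in R 4.3.3 (trended prior) on log2(value + 1) of the 7431 features averaging 10 or more, with 1 mean per condition, 77 libraries after merging 1 pair, and Benjamini-Hochberg adjustment at 0.1 over all features. Time points of 1 culture entered as independent, so p-values of tests that pool them may be too small. The ratio of the pair was compared over cultures by exact permutation (scipy 1.17.1), with each replicate number of a strain taken as 1 culture. Alternatives included edgeR 4.0.16 and DESeq2 1.42.0 on the recovered reads, other pseudocounts, filters, scaling and windows, a culture block, and each replicate left out. The tests were checked on simulated data drawn independently for each library, which cannot show the effect of time points that share a culture. The genes and lists were chosen with earlier results of these data known. From each list, the 2 genes with the largest amplitude difference between Nrm1-SA and Nrm1 were named, and for each licensing gene the 5 protein-coding genes with the highest correlation.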

Additional observations from a re-analysis of the deposited data

Results flagged for a closer look

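The amplitude differed between strains for both genes. For *cdc18* the differences were -1.57 ± 0.06 between Nrm1-SA and Nrm1 and -1.43 ± 0.05 between Nrm1-SD and Nrm1. For *cdt1* they were -2.65 and -1.96 in the same comparisons and 0.69 between Nrm1-SD and Nrm1-SA.

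The response to the block differed between strains, by 0.64 for *cdc18* and 2.08 for *cdt1* between Nrm1-SD and Nrm1, by 0.72 and 1.33 between Nrm1-SD and Nrm1-SA, and by 0.75 for *cdt1* between Nrm1-SA and Nrm1. The change from the first to the second peak differed by -0.51 for *cdc18* between Nrm1-SA and Nrm1, by -0.53 for *cdc18* and -0.61 for *cdt1* between Nrm1-SD and Nrm1, and by -0.36 for *cdt1* between the mutants. Each was a test of the difference itself in limma with an adjusted p of at most 0.051. These tests took the libraries of a culture as independent, so the p-values may be too small. Groups of 2 libraries are too small for a check on single outlying libraries.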

How the results depend on the processing

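Of 1332 values of the pair under alternatives, 1307 kept their side of the threshold, and no called value among them changed direction. Values called in neither fit could change direction among these. For *cdc18* in asynchronous cultures, Nrm1-SD minus Nrm1 went from 0.019 to -0.063 without replicate 1 of Nrm1. With single time points (60, 180 and 120 min) as windows, the second peak minus the first turned to -0.12 for *cdc18* and -0.50 for *cdt1* in Nrm1 and to -0.38 for *cdt1* in Nrm1-SA, and the *cdc18* amplitude in Nrm1-SD to -0.064. With the same windows, calls were lost for the *cdt1* amplitude between the mutants (0.44) and for the strain differences in second minus first peak: -0.16 and -0.19 for *cdc18* in Nrm1-SA and Nrm1-SD against Nrm1, and -0.28 and -0.39 for *cdt1* in Nrm1-SD against Nrm1 and Nrm1-SA. The last of these, -0.36, was also lost at a threshold of 0.05 and with only the strains compared in the fit, and DESeq2 lost *cdt1* in the block between Nrm1-SA and Nrm1 (-0.49). The cause was not tested.

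Leaving out replicates, at least 1 omission lost the call for 8 results, whose ranges were -0.34 to -0.17 (*cdc18*, asynchronous, Nrm1-SA minus Nrm1), -0.70 to -0.34 (*cdt1*, block, Nrm1-SA minus Nrm1), 0.63 to 0.86 (*cdt1*, response to the block, Nrm1-SA minus Nrm1), -0.28 to -0.13 (*cdc18*, block minus asynchronous in Nrm1), -0.31 to -0.19 (*cdt1*, second minus first peak in Nrm1-SD), -0.67 to -0.55 and -0.42 to -0.30 (*cdt1*, second minus first peak, Nrm1-SD against Nrm1 and Nrm1-SA) and 0.088 to 0.13 (*cdc18* amplitude in Nrm1-SD). These fits leave 1 library in a condition, assumed to vary like the others. Over the peak windows only, the log2 ratio of the pair differed by 1.20 (Nrm1-SA minus Nrm1), 0.71 (Nrm1-SD minus Nrm1) and -0.49 (Nrm1-SD minus Nrm1-SA).

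Whether cultures of different strains with the same replicate number were grown together is not given in the sources used here. Between strains, replicate deviations correlated between -0.153 and 0.0996 (median 0.0046), which does not settle it. Between time points of the same strain they correlated between -0.0786 and 0.259 (median 0.0496). A replicate block changed no call of the pair (the *cdt1* amplitude difference in Nrm1-SA stayed at -2.65). Counts over all features moved by over 1.5 times in 27 of 36 comparisons, for asynchronous Nrm1-SA from 1027 to between 245 and 1360, for asynchronous Nrm1-SD from 178 to between 43 and 320, and for the amplitude from 449 to between 163 and 687 in Nrm1-SA and from 110 to between 53 and 133 in Nrm1-SD. edgeR on the recovered reads called 653 and 119 for the amplitude. Without both Nrm1-SD libraries at 220 min, an alternative chosen after seeing the data, no call of the pair changed, the ratio differences were 0.85, 0.53 and -0.31 (Nrm1-SA and Nrm1-SD against Nrm1, and Nrm1-SD minus Nrm1-SA), and calls for the amplitude between the mutants went from 166 to 260 features. With 54 reads in its lowest library, *cdt1* near its floor is limited by depth.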
